A study of Mus musculus with 4 samples.

Results

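Eph receptors were followed through the embryonic mouse medial neocortex by single-nucleus RNA sequencing. The set comprises 10 of the 56884 genes in the deposited tables, chosen by symbol as the Eph receptor genes *Epha3*, *Epha4*, *Epha5*, *Epha6*, *Epha7*, *Epha10*, *Ephb1*, *Ephb2*, *Ephb3* and *Ephb6*. Tissue was taken at E16.5, a stage given in embryonic days, from 2 genotypes with 2 libraries each. Control embryos carried *Sst-Cre* and the tdTomato reporter, in which Cre recombinase is driven by the somatostatin gene *Sst*. *Dnmt1* KO embryos carried the same *Sst-Cre* and tdTomato and in addition loxP-flanked alleles of *Dnmt1*, the gene of DNA methyltransferase 1. The deletion is therefore directed to postmitotic *Sst*-expressing interneurons, and excitatory neurons and their progenitors are not the cells in which Cre is driven. The question behind the design is how the loss of *Dnmt1* from these interneurons bears on the cortex around them, and the study discusses contacts between ephrins of interneurons and Eph receptors of progenitors. The gene tables hold no entry for Cre or tdTomato, so recombined nuclei were not identified. The nuclei are described as coming from 2 brains of 2 mice per genotype, which with 2 libraries per genotype gives 1 brain per library, and p-values measure the spread between these libraries only.

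Eph receptors form the largest family of receptor tyrosine kinases and bind ephrins, ligands that are themselves anchored to the membrane of the neighbouring cell. A-class receptors prefer the lipid-anchored ephrin-A ligands and B-class receptors the transmembrane ephrin-B ligands, with EphA4 known for binding both classes. Contact can signal into both cells and is often repulsive, and in the developing cortex the family is known for axon guidance, the mapping of thalamic inputs, neuronal migration and the control of progenitor division. EphA10 and EphB6 differ from the other members in that their kinase domains are catalytically inactive.

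Since *Dnmt1* acts on cytosines followed by guanine, the promoters of the receptors that the study discusses by name are shown, *Epha4* for progenitors and *Ephb1* for the marginal zone and migrating interneurons. Each sequence is the 250 bases before the RefSeq start on GRCm38.p6, written 5′ to 3′ on the gene's strand, with each CG dinucleotide in capitals. The window of *Epha4* is chr1:77515089-77515338 and that of *Ephb1* chr9:102354694-102354943, both on the minus strand.
Epha4: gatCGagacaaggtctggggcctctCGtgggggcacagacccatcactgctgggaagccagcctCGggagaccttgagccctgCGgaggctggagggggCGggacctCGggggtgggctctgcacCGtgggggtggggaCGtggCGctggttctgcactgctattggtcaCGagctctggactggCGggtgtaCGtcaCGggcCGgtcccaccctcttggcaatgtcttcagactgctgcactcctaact
Ephb1: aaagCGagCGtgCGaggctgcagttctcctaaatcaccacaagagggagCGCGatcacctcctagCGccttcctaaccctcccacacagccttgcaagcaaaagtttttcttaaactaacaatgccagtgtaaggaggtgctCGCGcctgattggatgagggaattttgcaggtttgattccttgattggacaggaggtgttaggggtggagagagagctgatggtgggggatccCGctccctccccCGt
The *Epha4* window holds 14 CG dinucleotides, a number reached by 29.4% of 32851 RefSeq windows of this length, whose median is 6. The *Ephb1* window holds 10, the fewest of the 11 member windows, and 37.8% of all windows hold at least as many. *Ephb6* has the richest window with 27, reached by 8.56% of all windows. At least 1 CG is present in 92.1% of the windows. These letters describe the sequence and not its methylation, which was not measured in these libraries.

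The coordinates of the genes themselves are given on GRCm39 with GENCODE vM39. Among the A class, *Epha3* lies at chr16:63363897-63684538 on the minus strand, *Epha4* at chr1:77343822-77492816 on the minus strand and *Epha5* at chr5:84202620-84565348 on the minus strand. *Epha6* is the longest of the 10 genes at 952 kb and lies at chr16:59473846-60425894 on the minus strand. *Epha7* lies at chr4:28813034-28967507 and *Epha10* at chr4:124774692-124811594, both on the plus strand. Of the B class, *Ephb1* lies at chr9:101799327-102231898 and *Ephb2* at chr4:136374850-136563351 on the minus strand, and *Ephb3* at chr16:21023495-21042057 and *Ephb6* at chr6:41581983-41600264 on the plus strand. *Ephb1* overlaps 13 annotated genes, 10 of them on the opposite strand, and *Ephb6* overlaps the opposite-strand gene *Trpv6*. The use of strand and introns in the counting was not stated, so reads of such neighbours cannot be told apart from those of the receptor.

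The 4 libraries gave 29656 nuclei with 1500 to 60000 transcripts (unique molecular identifiers), namely 5640 and 12064 for *Dnmt1* KO replicates 1 and 2 and 7047 and 4905 for control replicates 1 and 2. Median depth per nucleus was 12274 to 12401 transcripts in the libraries of batch 1 and 21140 in control replicate 2, which alone makes up batch 2, so that for this library batch and genotype cannot be told apart. No combination of barcoding wells occurred in more than 1 library (0 of the retained barcodes). Counts were summed per library within gates, that is, classes of nuclei defined by the marker genes they contain, and are given as CPM, the transcripts of a gene scaled to a common total for each library and gate. Where 4 values of a gene are listed, they belong to replicates 1 and 2 of *Dnmt1* KO and then to replicates 1 and 2 of the control. The gates held 3124 progenitor, 2269 intermediate progenitor, 4812 upper-layer neuron, 4950 deep-layer neuron and 1918 interneuron nuclei, together 17073. The 6 GABAergic markers by which nuclei entered or left the gates summed to 2916 to 3784 CPM over the libraries of the interneuron gate and 3.65 to 21.0 CPM in the other gates, a contrast that the gating rule sets. The full list of 10 interneuron markers, with *Lhx6*, Nxph1, Sox6 and *Sst* added, reached 13797 to 15917 CPM in the interneuron gate, 3486 to 3734 CPM in the progenitor gate, 2271 to 2687 CPM in the intermediate progenitor gate and 26.2 to 177 CPM in the layer gates, so the added 4 genes carry nearly the whole of the list's level in both progenitor gates. *Dnmt1*, the targeted gene, was present in every library. Its level in *Sst*+/*Gad2*+ nuclei was 76.1 and 46.1 CPM in the *Dnmt1* KO and 81.2 and 66.5 CPM in the control libraries, from 18 to 99 transcripts, and in the interneuron gate 61.3 and 50.4 against 60.1 and 55.1 CPM. The genotypes overlapped in both, and since the count covers the whole gene and not the deleted stretch, it does not check the deletion.

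Levels of the receptors are compared with each other only per length. Per 100 kb of genomic span, over all retained nuclei, *Epha5* was highest at 501 CPM, followed by *Epha3* at 403 and *Epha4* at 396 CPM, and *Epha10* was lowest at 5.14 CPM. Per kb of exon the order changed to *Epha3* at 136 CPM, *Ephb1* at 128 CPM and *Epha5* at 87.8 CPM, with *Ephb3* at 0.674 CPM and *Epha10* at 0.218 CPM at the bottom. Nuclear RNA is rich in introns, so neither length is exact. *Epha10* and *Ephb3* were the scarcest on both scales or next to the scarcest, with *Epha6* at 25.7 CPM per 100 kb close to *Ephb3* at 25.1 CPM per 100 kb.

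Most gated nuclei held transcripts of several members. After each nucleus was thinned to 1500 transcripts, the mean number of members detected per nucleus was lowest in the interneuron gate of *Dnmt1* KO replicate 1 (2.13) and highest in the intermediate progenitor gate of the same library (3.45). *Epha5* was found in 97.8% of the 17073 gated nuclei (exact 95% interval 97.6% to 98.0%), *Ephb2* in 85.2%, *Epha4* in 80.1% and *Epha3* in 77.8%. *Ephb3* reached 5.84% and *Epha10* 2.01%. Intervals and detection floors cover counting error only. These shares are before thinning, and after it they were 82.2% for *Epha5*, 30.7% for *Ephb2*, 44.2% for *Epha4* and 54.2% for *Epha3*. As a background, shares were read in 66 nuclei with microglia markers, a cell type outside the neural lineage with a median of 6642 to 11016 transcripts per nucleus in the 4 libraries. Of these nuclei 42 came from *Dnmt1* KO replicate 2 and 6, 13 and 5 from *Dnmt1* KO replicate 1 and control replicates 1 and 2, so the pooled background stands mostly for 1 library and was not read per library. Before thinning *Epha5* was found in 45.5% of these nuclei, *Ephb2* in 18.2%, *Epha4* in 25.8% and *Epha3* in 24.2%. After thinning *Epha5* was found in 21.2% of them, *Epha3* in 10.6%, *Epha6* in 7.58% (exact 95% interval 2.51% to 16.8%), and *Epha4*, *Epha7*, *Ephb1* and *Ephb2* in 6.06% each, with *Epha10*, *Ephb3* and *Ephb6* in 0%, where a count of 0 of 66 allows up to 4.55%. At or below this background were *Ephb1* in the interneuron gate (2.55% to 4.98% of nuclei per library after thinning) and *Epha6* in the progenitor (3.37% to 6.60%) and intermediate progenitor gates (2.76% to 6.46%). By share these were not told apart from the background, which does not show that the genes are unexpressed there. Before thinning *Ephb1* was found in 14.9% to 24.6% of interneuron nuclei, which are deeper than the microglia-marked nuclei, and in 15.2% of the latter. *Epha6* lay on both sides of it in the upper-layer (2.22% to 11.05%) and interneuron gates (5.53% to 15.3%). The progenitor share of *Epha3* fell below it in *Dnmt1* KO replicate 1 (6.68%) and control replicate 2 (5.18%) but not in the other libraries, which reached 22.5% and 20.7%.

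By level, microglia-marked nuclei held 538 CPM (484 to 596) of *Epha3*, with the exact 95% Poisson interval in parentheses here and below, 163 CPM (134 to 196) of *Epha4* and 976 CPM (903 to 1053) of *Epha5*. They held 144 CPM (117 to 175) of *Epha6*, 181 CPM (150.2 to 216) of *Epha7*, 101 CPM (78.9 to 128) of *Ephb1* and 70.5 CPM (52.0 to 93.5) of *Ephb2*, and no transcript of *Epha10*, where the interval reaches 5.42 CPM. Gate means within or below these intervals were those of *Epha3* in progenitors and deep-layer nuclei, *Epha6* in progenitors, intermediate progenitors and upper-layer nuclei, *Epha7* in progenitors and interneurons, *Epha10* in every gate and *Ephb1* in interneurons. In 387 nuclei with vascular markers *Epha3* was 382 CPM (367 to 398) and *Epha7* 155 CPM (145 to 165), with 213 of these nuclei from *Dnmt1* KO replicate 2. These values lay below the deep-layer mean of *Epha3* and the progenitor and interneuron means of *Epha7*. The progenitor mean of *Epha3* lay below both classes, so the microglia-marked level is a reference and no floor. Where it is the reason that a size was not resolved, another class may read otherwise. Level and share did not give the same reading for *Epha3* in deep-layer nuclei (32.1% to 43.3% of nuclei per library after thinning) and for *Epha7* in progenitors (15.0% to 24.8%) and interneurons (13.6% to 21.1%), whose shares lay above those of the background. *Ephb3* and *Ephb6* are treated beside their levels.

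**Figure D1:**
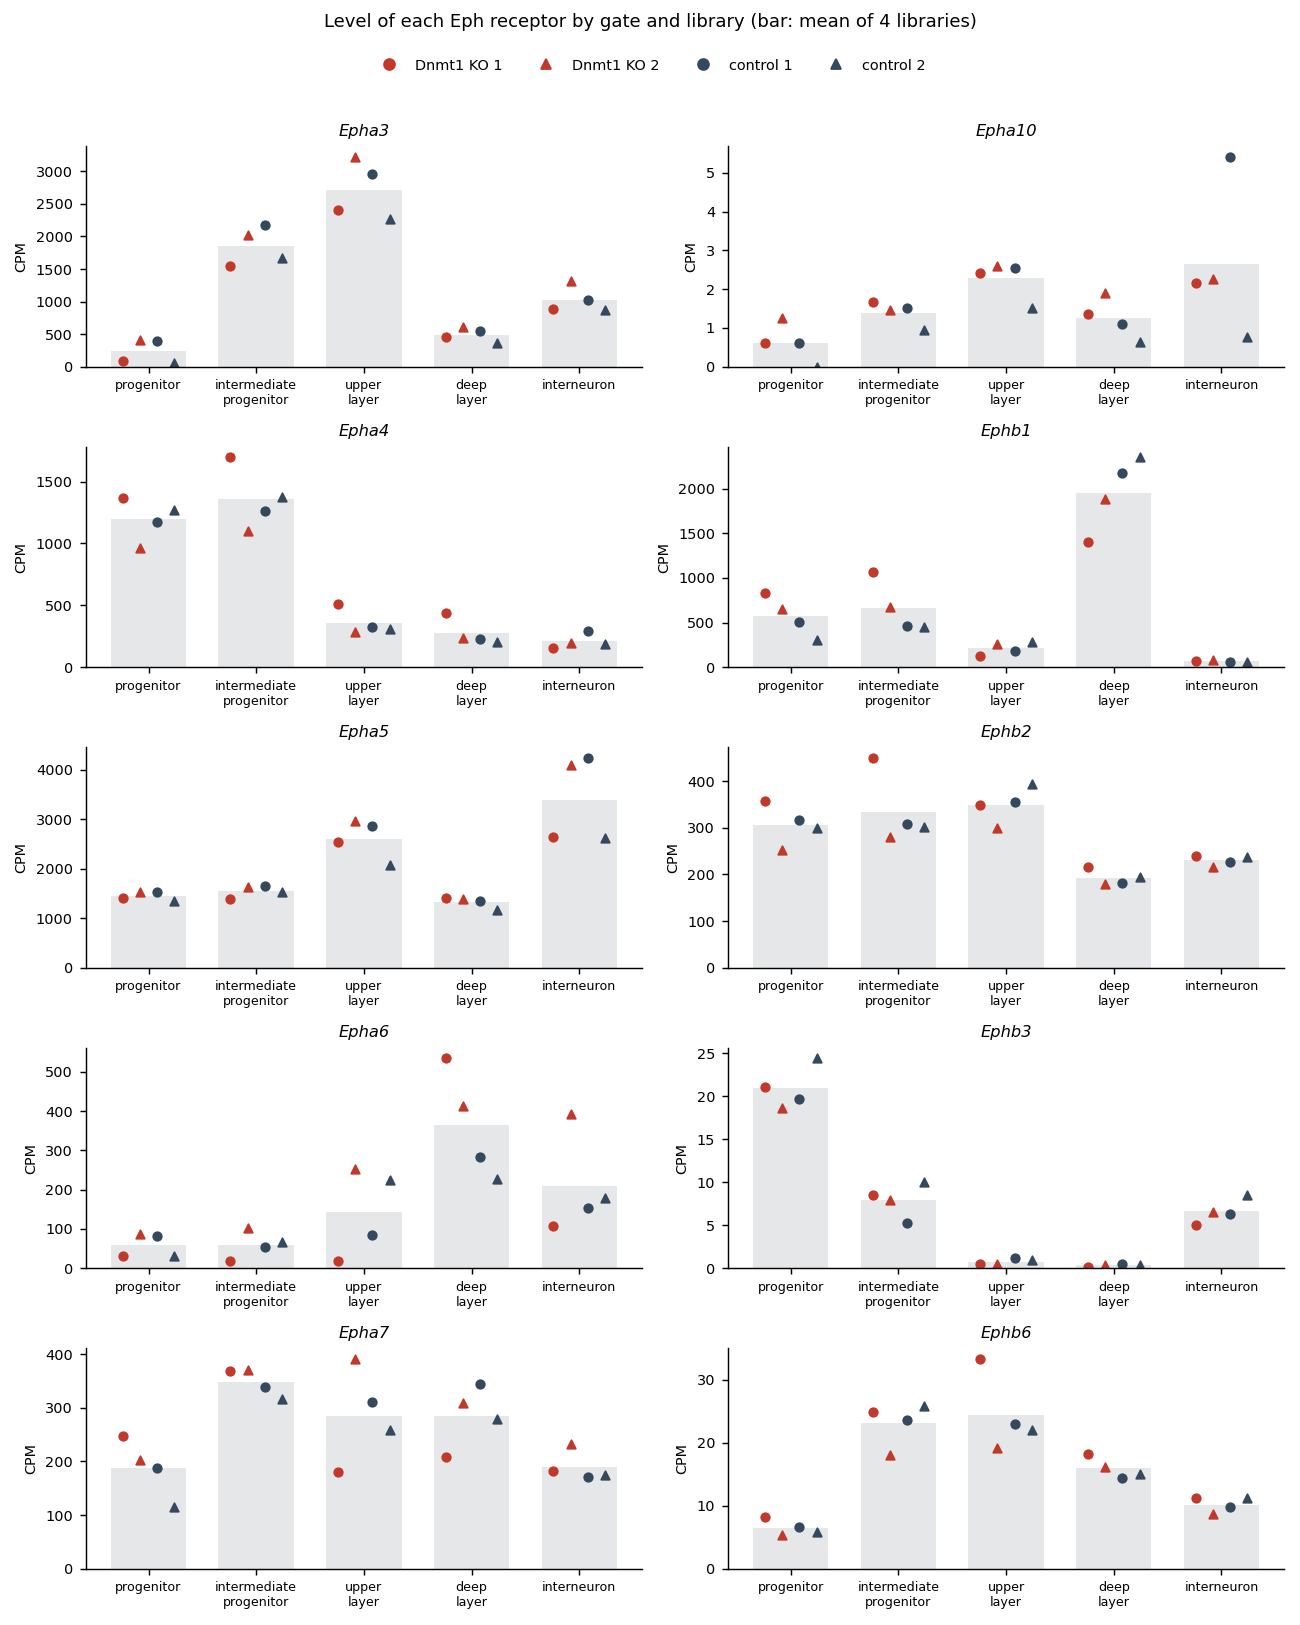
Level of each Eph receptor by gate, in CPM on linear axes that start at 0, with 1 point per library (2 *Dnmt1* KO, 2 control) and a bar from 0 to the mean of the 4 libraries. *Epha3* is highest in the upper-layer gate (mean 2713 CPM), *Ephb1* in the deep-layer gate (1955 CPM), *Epha4* in both progenitor gates and *Ephb3* in the progenitor gate (21.0 CPM).

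*Epha3*, an A-class receptor for ephrin-A ligands, was low in progenitors, high in intermediate progenitors and upper-layer neurons and low again in deep-layer neurons. In the upper-layer gate its level was 2412, 3223, 2955 and 2262 CPM. The intermediate progenitor gate followed with 1554, 2028, 2169 and 1668 CPM, and the interneuron gate with 893, 1314, 1022 and 868 CPM. Deep-layer nuclei held 455, 608, 549 and 364 CPM and progenitors 80.7, 405, 390.2 and 64.5 CPM. Mean levels were 2713 ± 452 CPM (SD, n = 4 libraries here and for the means below), 1855 ± 291 CPM, 1024 ± 204 CPM, 494 ± 107 CPM and 235 ± 188 CPM in this order. The top 4 gates did not overlap, whereas deep-layer and progenitor values did. In the progenitor gate *Dnmt1* KO replicate 2 and control replicate 1 stood far above the other libraries.

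*Epha4*, the receptor able to bind ephrins of both classes, was high in both progenitor gates and low in neurons. Its level was 1365, 966, 1176 and 1268 CPM in the progenitor gate. In the intermediate progenitor gate it was 1696, 1102, 1261 and 1375 CPM. The 2 gates overlapped, although the intermediate progenitor value was the higher in all 4 libraries. Upper-layer nuclei held 512, 284, 328 and 305 CPM, deep-layer nuclei held 434, 239, 227 and 205 CPM, and interneurons held 155, 192, 295 and 189 CPM. The means of 1358 ± 251 CPM and 1194 ± 170.4 CPM in the progenitor gates stood above 357 ± 104 CPM, 276 ± 106 CPM and 208 ± 60.6 CPM in the neuron gates, and the lowest progenitor library exceeded every neuron library. The 3 neuron gates overlapped each other.

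*Epha5*, a further ephrin-A receptor, was abundant in every gate and highest in interneurons, at 2628, 4087, 4235 and 2625 CPM. Upper-layer nuclei held 2537, 2960.3, 2854 and 2064 CPM, which overlapped the interneuron values, although within each library the interneuron level was the higher. Intermediate progenitors, progenitors and deep-layer nuclei lay close together at 1548 ± 115 CPM, 1453 ± 98.4 CPM and 1327 ± 111 CPM, all below the upper-layer gate. *Epha6*, also an ephrin-A receptor, varied strongly between libraries. Its level was 535, 414, 283 and 227 CPM in the deep-layer gate, 17.2, 252, 83.5 and 224 CPM in the upper-layer gate and 108, 393, 154 and 179 CPM in the interneuron gate. *Dnmt1* KO replicate 1 was the lowest library in the upper-layer and interneuron gates and the highest in the deep-layer gate, and neighbouring gates overlapped throughout the order of the means, from 365 ± 138 CPM in deep-layer nuclei to 58.0 ± 31.4 CPM in progenitors.

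*Epha7*, known for isoforms that lack the kinase, varied least between gates within the A class, with the highest mean 1.86-fold above the lowest. Intermediate progenitors held 368, 370.3, 338 and 317 CPM and progenitors 247, 202, 187 and 115 CPM. The means ran from 348 ± 25.8 CPM in intermediate progenitors through 285 ± 88.6 CPM, 285 ± 57.8 CPM and 190.4 ± 28.3 CPM to 188 ± 54.9 CPM in progenitors, and each gate overlapped the next. *Epha10*, with its inactive kinase, stayed between 0.618 ± 0.508 CPM in progenitors and 2.65 ± 1.97 CPM in interneurons. No transcript was counted in the progenitor gate of control replicate 2, where 3 transcripts would be 0.436 CPM, and each gate overlapped the next in the order of the means.

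*Ephb1*, a B-class receptor for ephrin-B ligands, was highest in deep-layer neurons. Deep-layer nuclei held 1408, 1882, 2176 and 2353 CPM. Intermediate progenitors held 1067, 676, 456 and 455 CPM, progenitors held 834, 657, 505 and 306 CPM, and upper-layer nuclei held 122, 259, 182 and 285 CPM. The deep-layer mean of 1955 ± 413 CPM lay above 664 ± 289 CPM and 576 ± 224 CPM in the progenitor gates, which overlapped, and above 212 ± 74.4 CPM in the upper-layer gate without overlap. In interneurons the level was 66.7, 80.9, 63.3 and 57.0 CPM, below every other gate and within or below the background given above.

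*Ephb2*, a B-class receptor known from the guidance of commissural axons, varied 1.81-fold between the gate means. Upper-layer nuclei held 349.6, 299, 355 and 394 CPM, with a mean of 349 ± 39.1 CPM. Deep-layer nuclei held 216, 180.3, 181 and 194 CPM, with a mean of 193 ± 16.8 CPM. Progenitors (306 ± 43.5 CPM) lay above interneurons (230.2 ± 11.3 CPM) without overlap. *Ephb3*, likewise a receptor for ephrin-B ligands, was highest in progenitors at a low level of 21.1, 18.7, 19.6 and 24.4 CPM. It reached 7.94 ± 1.98 CPM in intermediate progenitors and 6.60 ± 1.44 CPM in interneurons. In the upper-layer and deep-layer gates it stood at 0.765 ± 0.388 CPM and 0.355 ± 0.144 CPM, from 2 to 26 transcripts per library. Microglia-marked nuclei held 5 transcripts of *Ephb3*, that is, 7.35 CPM (exact 95% Poisson interval 2.39 to 17.1 CPM). The intermediate progenitor and interneuron levels lay within this interval, and the progenitor level above it. After thinning, the share of nuclei with *Ephb3* was 2.64% to 3.55% in progenitors and 0.759% to 1.99% in interneurons, both below the 4.55% that the count of 0 in 66 nuclei allows. In nuclei with vascular markers *Ephb3* was 2.45 CPM (1.37 to 4.04), below its interneuron levels of 5.05 to 8.53 CPM. The layer means also lay below the microglia-marked interval. Whether the interneuron level can be told from background therefore depends on the nuclei taken as reference. *Ephb6*, the kinase-inactive B-class member, ran the opposite way, with 8.26, 5.42, 6.62 and 5.81 CPM in progenitors and 24.9, 18.1, 23.6 and 25.8 CPM in intermediate progenitors. Its means of 24.4 ± 6.19 CPM in upper-layer, 23.1 ± 3.45 CPM in intermediate progenitor and 16.0 ± 1.69 CPM in deep-layer nuclei overlapped in turn, and interneurons (10.2 ± 1.22 CPM) and progenitors (6.53 ± 1.26 CPM) followed without overlap. Its background in microglia-marked nuclei was 8.82 CPM (exact 95% Poisson interval 3.24 to 19.2 CPM), from 6 transcripts, an interval that holds the means of interneurons, progenitors and deep-layer nuclei. In vascular-marked nuclei it was 5.72 CPM (3.98 to 7.95), an interval that holds the progenitor mean and lies below those of interneurons and deep-layer nuclei.

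These differences were tested along the excitatory lineage and between the lineages with edgeR's quasi-likelihood test on the 20 sums of 5 gates and 4 libraries, with the library as a block and Benjamini-Hochberg adjustment, and the shares of all genes below are over 15380 genes that are not gate markers. Between intermediate progenitors and progenitors 4 of 10 members passed, against 49.5% of all genes, so the number of members that passed is no result about the family. The median log2 fold change was 0.24 over the members and -0.05 over all genes. Of them 3 were higher in intermediate progenitors (21.8% of all genes) and 1 was lower (27.7% of all genes). *Epha3* had a log2 fold change of 3.25 (SE 0.36, adjusted p = 1.61e-06), *Ephb6* of 1.86 (SE 0.11, adjusted p = 1.83e-09) and *Epha7* of 0.95 (SE 0.21, adjusted p = 0.00107), and *Ephb3* was lower with -1.34 (SE 0.18, adjusted p = 9.81e-06). The *Epha3* change also rests on progenitor values that spanned 64.5 to 405 CPM between libraries. Against microglia-marked nuclei none of the 4 sizes was resolved. The progenitor levels of *Epha3*, *Epha7* and *Ephb6* and the intermediate progenitor level of *Ephb3* lay within or below their intervals.

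From intermediate progenitors to upper-layer nuclei 9 of 10 members passed, where 59% of all genes did, with 6 higher (29.3% of all genes) and 3 lower (29.7% of all genes). When each nucleus was put in the class of its highest marker score 6 members passed, 3 higher and 3 lower, where 8179 of 16697 genes passed. Without *Dnmt1* KO replicate 2 it was also 6, with 3 higher and 3 lower, and 8 or 9 without another library. The counts without a library were not set against those of all genes and are no result about the family. Medians of the log2 fold change were 0.44 over the members and 0.00 over all genes. The largest fitted changes were *Ephb3* with -2.96 (SE 0.25, adjusted p = 3.62e-08), *Epha6* with 1.60 (SE 0.54, adjusted p = 0.0168), *Epha4* with -1.57 (SE 0.19, adjusted p = 2.82e-06) and *Ephb1* with -1.21 (SE 0.34, adjusted p = 0.00534). The levels of *Epha6* and *Epha10* in both gates and of *Ephb3* in intermediate progenitors lay within or below the background of microglia-marked nuclei, and upper-layer *Ephb3* rested on 2 to 26 transcripts per library, so the sizes of these changes and their rank were not resolved. *Epha3*, *Epha5*, *Epha10*, *Ephb2* and *Ephb6* were higher in upper-layer nuclei by log2 fold changes of 0.43 to 1.12, and *Epha7* did not pass. In CPM the upper-layer and intermediate progenitor means were 349 and 335 CPM for *Ephb2* and 24.4 and 23.1 CPM for *Ephb6*. *Ephb6* was higher in CPM in 2 of 4 libraries, so the differences of these 2 members depend on the scaling used in the fit. The *Epha6* change fell to 0.20 (adjusted p = 0.68) when each nucleus was put in the class of its highest marker score, and did not pass without *Dnmt1* KO replicate 2 (adjusted p = 0.0732) or without control replicate 2 (adjusted p = 0.0893). With gates drawn on thinned nuclei *Ephb1* had a log2 fold change of -0.70 and no longer passed (adjusted p = 0.05003).

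Between the layers 7 of 10 members passed, against 42.4% of all genes, 2 of them higher in deep-layer nuclei (22.6% of all genes) and 5 lower (19.7% of all genes). The members had a median log2 fold change of -0.54 and all genes of -0.00. *Ephb1* was higher in the deep-layer gate with a log2 fold change of 3.38 (SE 0.36, adjusted p = 1.19e-06) and *Epha6* with 1.88 (SE 0.55, adjusted p = 0.0109), whereas *Epha3* was lower with -2.30 (SE 0.34, adjusted p = 4.53e-05) and *Ephb3* with -0.94 (SE 0.34, adjusted p = 0.0352). *Epha5*, *Ephb2* and *Ephb6* were lower by log2 fold changes of -0.79 to -0.39. Against microglia-marked nuclei the sizes for *Epha3*, *Epha6*, *Ephb3* and *Ephb6* were not resolved. The deep-layer levels of *Epha3* and *Ephb6*, the upper-layer level of *Epha6* and both levels of *Ephb3* lay within or below their background. For *Epha3* that background is no floor. In *Dnmt1* KO replicate 1 and control replicate 2 progenitors held 80.7 and 64.5 CPM and deep-layer nuclei 455 and 364 CPM. *Epha6* did not pass without *Dnmt1* KO replicate 1 (log2 fold change 0.90) or without control replicate 1 (1.88, adjusted p = 0.0595). *Ephb3*, at under 1 CPM in both layers, did not pass in 6 alternatives, with log2 fold changes of -0.95 to -0.20.

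Interneurons were set against the mean of both layer gates. Here too 7 of 10 members passed, against 40.8% of all genes, with 2 higher (19.2% of all genes) and 5 lower (21.6% of all genes) in interneurons, and median log2 fold changes of -0.31 over the members and -0.01 over all genes. *Ephb3* was higher with a log2 fold change of 3.55 (SE 0.23, adjusted p = 2.35e-09) and *Epha5* with 0.76 (SE 0.08, adjusted p = 1.85e-06). The *Ephb3* value sets an interneuron level within the background of microglia-marked nuclei against layer sums of 2 to 26 transcripts per library, the lowest of which (0.442 CPM in the upper-layer gate of *Dnmt1* KO replicate 1) was under the 0.663 CPM of 3 transcripts, so its size was not resolved. *Ephb1* was lower with -3.39 (SE 0.35, adjusted p = 6.04e-07) and *Ephb6* with -1.03 (SE 0.10, adjusted p = 3.36e-07), and *Epha4*, *Epha7* and *Ephb2* were lower by log2 fold changes of -0.67 to -0.26. The interneuron levels of *Ephb1*, *Ephb6* and *Epha7* are likewise within or below the background, as are the *Epha4* levels of 3 of 4 libraries, so the sizes of their changes were not resolved either. With gates drawn on thinned nuclei 4 of 9 tested members passed, where 3462 of 11716 genes did.

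**Figure D2:**
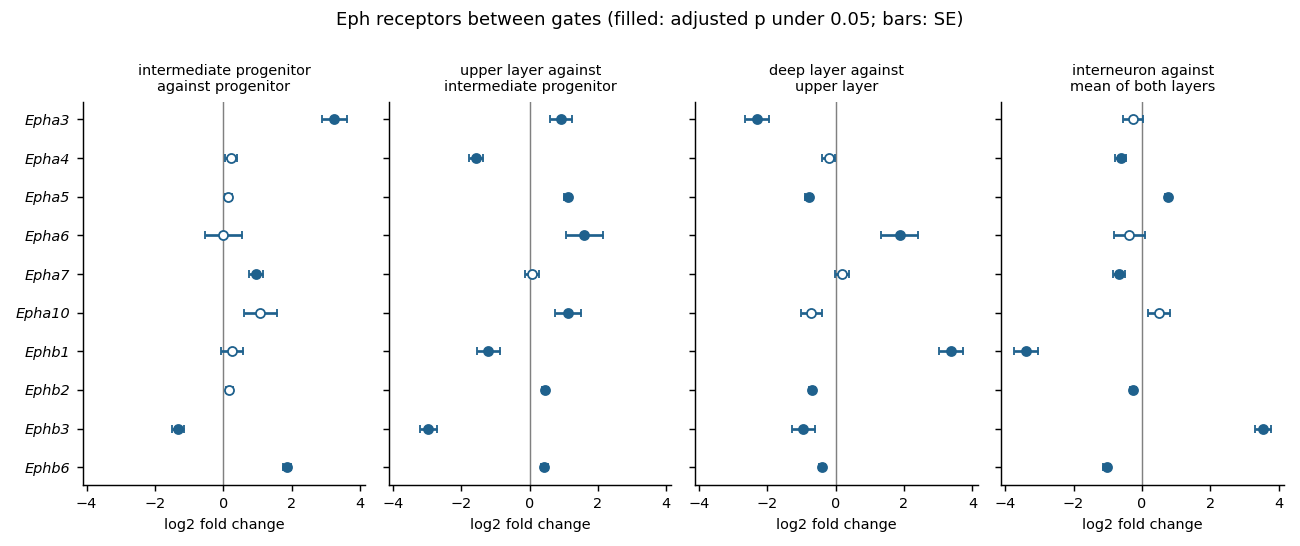
Log2 fold change of each Eph receptor in 4 contrasts of gates, from edgeR's quasi-likelihood fit over 20 sums. Bars are 1 SE, derived from the fold change and the F statistic, and filled points mark members that passed the adjusted threshold. *Ephb1* lies at 3.38 in deep-layer against upper-layer nuclei and at -3.39 in interneurons against both layers, and *Ephb3* at 3.55 in interneurons against both layers. Against microglia-marked nuclei the sizes of the values for interneurons were not resolved, since both interneuron levels lay within or below their intervals.

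Within the progenitor gates the nuclei were split by the cell cycle genes *Mki67*, *Top2a* and *Cenpf*, calling a nucleus cycling where it held at least 2 of the 3. The levels in the split are a description over 4 libraries, in which each library has 83 to 177 cycling intermediate progenitors and the values carry more counting error than those of the whole gate. *Epha3* was lower in cycling nuclei in 4 of 4 libraries in both gates, with a mean of 158 CPM (range 39.2 to 308) in cycling and 378 CPM (range 119.8 to 661) in the other nuclei among progenitors. The cycling progenitor levels lay below that of microglia-marked nuclei in all 4 libraries, so against them the size of this difference among progenitors was not resolved. Among intermediate progenitors it had 1217 CPM in cycling against 2072 CPM in the other nuclei. *Epha7* was likewise lower in 4 of 4 libraries in both gates, at 248 CPM in cycling against 382 CPM in the other nuclei among intermediate progenitors. Its progenitor means of 172 CPM in cycling and 215 CPM in the other nuclei both lay within the interval of microglia-marked nuclei. By level the size of the *Epha7* difference among progenitors was therefore not resolved against them. In the intermediate progenitor gate *Epha4* (1149 CPM in cycling against 1429.6 CPM in the other nuclei), *Epha5*, *Ephb1* (409.8 CPM in cycling against 743 CPM in the other nuclei) and *Ephb6* were also lower in cycling nuclei in 4 of 4 libraries. The cycling mean of *Ephb6* there (15.2 CPM) lay within its interval of microglia-marked nuclei, so the size of its difference was not resolved against them. *Ephb2* went the other way among progenitors, with 324 CPM (range 268 to 383) in cycling and 271 CPM (range 222 to 311) in the other nuclei, higher in 4 of 4 libraries. *Epha4* did not follow the cycle in the progenitor gate, where cycling nuclei were higher in 3 of 4 libraries at 1205 CPM in cycling against 1171 CPM in the other nuclei. *Ephb3* was higher in cycling nuclei in 3 of 4 libraries of both gates. Its means in cycling and other nuclei were 22.6 and 16.9 CPM in progenitors and 10.0 and 7.21 CPM in intermediate progenitors. Apart from that of cycling progenitors, these means lay within the interval of microglia-marked nuclei. Among the genes with a mean of at least 10 CPM, gate and cell cycle markers left out, 23.1% were lower and 33.1% higher in cycling intermediate progenitors in 4 of 4 libraries, against 6 and 0 of 8 members. In progenitors 23.8% were lower and 26.8% higher, against 2 and 1 of 8 members, so the progenitor counts are no result about the receptors.

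**Figure D3:**
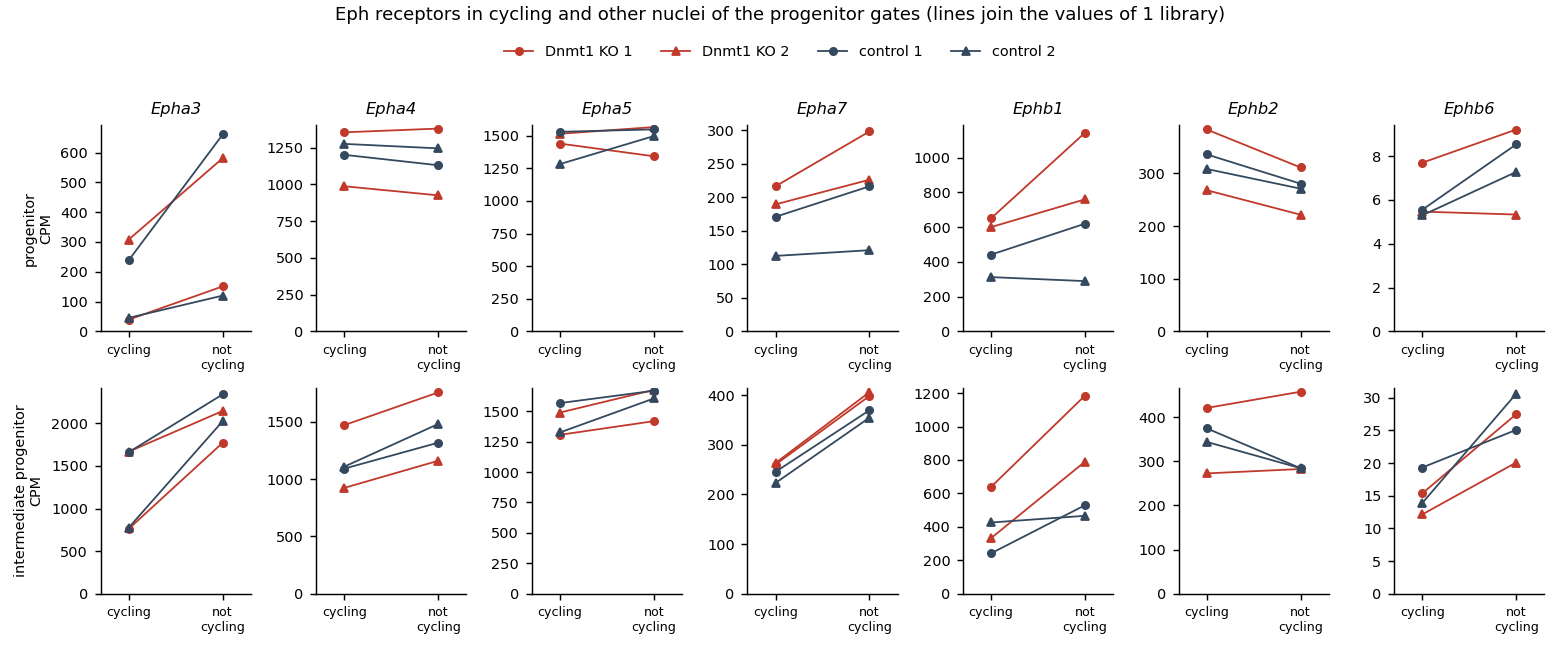
Level of 7 Eph receptors (*Epha6*, *Epha10* and *Ephb3* are not shown) in cycling and other nuclei of the progenitor and intermediate progenitor gates, in CPM on linear axes that start at 0, with lines that join the values of 1 library. *Epha3* and *Epha7* are lower in cycling nuclei in 4 of 4 libraries of both gates, where the cycling progenitor values of *Epha3* (39.2 to 308 CPM) lie below the 538 CPM of microglia-marked nuclei, and *Ephb2* is higher in cycling progenitors in 4 of 4 libraries. Among progenitors 23.8% of all genes were lower and 26.8% higher in this way, so these counts are no result about the receptors.

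Between the genotypes no Eph receptor passed in any population. All genotype comparisons use the same 4 libraries. With edgeR's quasi-likelihood test and Benjamini-Hochberg adjustment, 0 of 10 members passed over all retained nuclei, and neither did any other gene (0% of 21516 genes, with 1612 at an unadjusted p under 0.05). In the progenitor gate 0 of 9 tested members passed (0% of 14766 genes) and in the intermediate progenitor gate 0 of 9 (0% of 13290 genes). It was 0 of 10 members in the upper-layer gate (0% of 15145 genes), 0 of 10 in the deep-layer gate (0% of 15781 genes) and 0 of 10 in the interneuron gate (0% of 12288 genes), and 0 of 8 in *Sst*+/*Gad2*+ nuclei (0% of 7217 genes). At an unadjusted p under 0.05 there was 1 member over all nuclei, 1 in the progenitor gate, 1 in the intermediate progenitor gate, 0 in the upper-layer gate, 2 in the deep-layer gate, 2 in the interneuron gate and 0 in *Sst*+/*Gad2*+ nuclei. For the gates the number of all genes at this cut is given only as a range, so these counts are no result about the receptors. DESeq2 called 1 member in the intermediate progenitor gate, *Ephb1*, where it called 0.196% of all genes, and 1 in the deep-layer gate, *Epha6*, where it called 0.247%. It called 0 members in the other populations. Over all genes DESeq2 called 199 over all nuclei, 36 in the progenitor gate, 3 in the upper-layer gate, 1 in the interneuron gate and 0 in *Sst*+/*Gad2*+ nuclei, and edgeR had 211 to 1007 genes per gate or *Sst*+/*Gad2*+ sum at an unadjusted p under 0.05.

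The genotype difference with the smallest p among the members of either progenitor gate was that of *Ephb1*. In intermediate progenitors its values of 1067 and 676 CPM in the *Dnmt1* KO libraries lay above 456 and 455 CPM in the controls, a log2 fold change of 1.01 (SE 0.23, unadjusted p = 0.00537, adjusted p = 0.711). DESeq2 gave an adjusted p of 0.0368. In cycling intermediate progenitors the genotypes overlapped in *Ephb1*, with 639 and 332 CPM in the *Dnmt1* KO and 242 and 426 CPM in the control libraries. In the other nuclei of this gate they did not, with 1186 and 790 CPM against 529 and 466 CPM. The part of the share of cycling nuclei in this difference was not tested. In progenitors the values were 834 and 657 CPM in the *Dnmt1* KO and 505 and 306 CPM in the control libraries, also without overlap, with a log2 fold change of 0.92 (SE 0.28, unadjusted p = 0.0218, adjusted p = 0.774). Within batch 1, that is, without control replicate 2, the log2 fold change was 0.97 in intermediate progenitors and 0.59 in progenitors. In the deep-layer gate, where the gene is highest, the order was turned, with 1408 and 1882 CPM in the *Dnmt1* KO and 2176 and 2353 CPM in the control libraries, a log2 fold change of -0.46 (edgeR, unadjusted p = 0.0479). A test of whether the genotype difference differs between the 5 gates called 0 of 10 members and 0% of 15380 genes, with 415 genes at an unadjusted p under 0.05, and *Ephb1* had an unadjusted p of 0.0394 and an adjusted p of 0.9999. Marker genes of the same gates were read beside these values. Between the genotypes 38.8% of all genes did not overlap in the deep-layer gate, 39.2% in the intermediate progenitor and 38.5% in the progenitor gate. Counts of markers near or under these shares are no result about the markers. In the deep-layer gate the 7 deep-layer markers summed to 9437 and 11798 CPM in the *Dnmt1* KO and 13027 and 12208 CPM in the control libraries, with 3 of 7 lower and 1 higher without overlap. In intermediate progenitors the 5 Cajal-Retzius markers summed to 170 and 180 CPM in the *Dnmt1* KO and 61.6 and 83.2 CPM in the control libraries (1 of 5 higher without overlap), and 6 of 8 progenitor markers and 5 of 6 upper-layer markers were lower without overlap. In progenitors the 8 progenitor markers summed to 1521 and 1658 CPM in the *Dnmt1* KO and 1730 and 2011 CPM in the control libraries, with 2 of 8 lower and 1 higher without overlap. No marker of these lists was at 0 in its gate, and the part of these differences in the *Ephb1* values was not tested.

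*Epha4*, the receptor that the study discusses together with ephrin-B2, had overlapping values between the genotypes in both progenitor gates. Its log2 fold change was -0.03 (SE 0.18, unadjusted p = 0.892, adjusted p = 0.981) in progenitors and 0.16 (SE 0.23, unadjusted p = 0.52, adjusted p = 0.897) in intermediate progenitors, and its sign changed under several alternatives. In *Sst*+/*Gad2*+ nuclei its values were 148 and 94.0 CPM in the *Dnmt1* KO and 179 and 175 CPM in the control libraries, with a log2 fold change of -0.56 (SE 0.28, unadjusted p = 0.0845, adjusted p = 0.9996).

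*Epha6* had the smallest p over all nuclei and in the deep-layer gate. Deep-layer values of 535 and 414 CPM in the *Dnmt1* KO and 283 and 227 CPM in the control libraries did not overlap, with a log2 fold change of 0.90 (SE 0.17, unadjusted p = 0.00271, adjusted p = 0.754), and of 0.75 within batch 1. DESeq2 gave an adjusted p of 0.00556. The deep-layer markers of this gate are given above, and their part was not tested here either. Over all nuclei the log2 fold change was 0.62 (SE 0.20, unadjusted p = 0.0261, adjusted p = 0.649). The smallest p of the upper-layer gate belonged to *Ephb3* with -1.19 (SE 0.46, unadjusted p = 0.0502, adjusted p = 0.978), at under 2 CPM. That of the interneuron gate belonged to *Ephb1* with 0.35 (SE 0.14, unadjusted p = 0.043, adjusted p = 0.891). Its levels there lay within or below the background, and the sign turned, to -0.52, without called doublets.

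**Figure D4:**
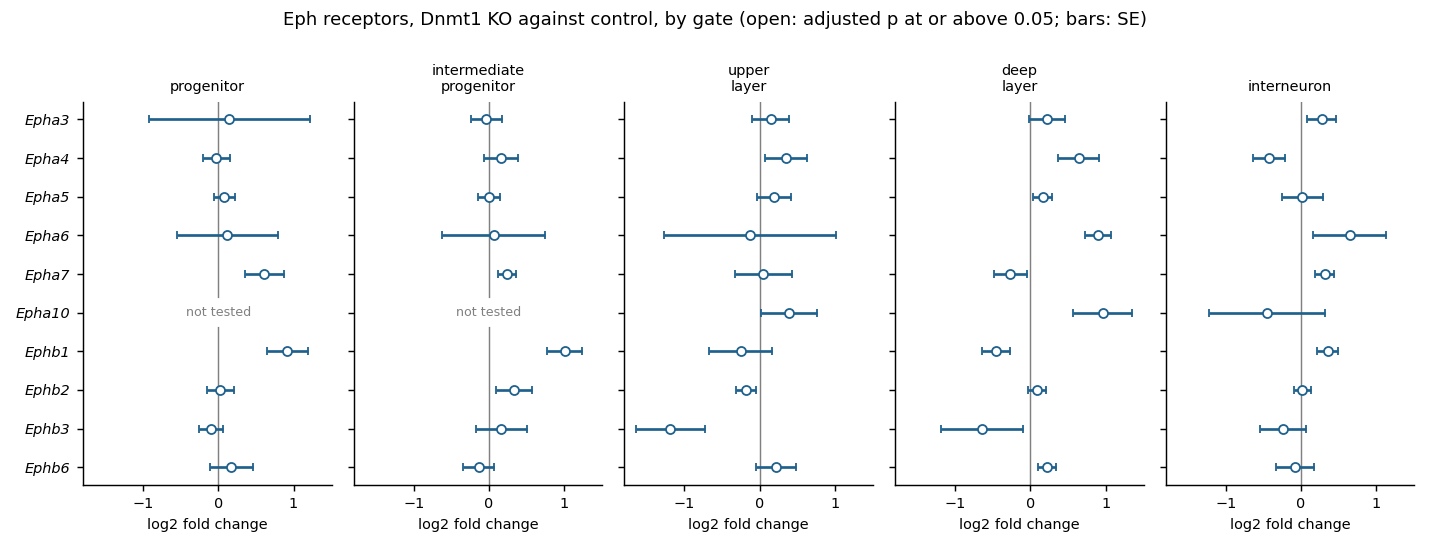
Log2 fold change of each Eph receptor in *Dnmt1* KO against control libraries, per gate, from edgeR's quasi-likelihood fit on 2 against 2 libraries. Bars are 1 SE, derived from the fold change and the F statistic. No member passed the adjusted threshold, and *Ephb1* lies at 0.92 and 1.01 in the progenitor and intermediate progenitor gates and at -0.46 in the deep-layer gate.

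Complete separation of the libraries by genotype was common in the whole table. In the progenitor gate 2 members did not overlap (38.5% of all genes), *Epha7* and *Ephb1*, both higher in *Dnmt1* KO. The same 2 members did so in the intermediate progenitor gate (39.2% of all genes) and in the interneuron gate (36.3% of all genes). In the upper-layer gate *Ephb2* and *Ephb3* were lower without overlap (32.7% of all genes). The deep-layer gate held 7 such members (38.8% of all genes), with *Epha4*, *Epha5*, *Epha6*, *Epha10* and *Ephb6* higher and *Ephb1* and *Ephb3* lower in *Dnmt1* KO.

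*Dnmt1* KO replicate 2 and control replicate 1 stood together above the other libraries for several members. *Epha3* showed this order in 5 of 5 gates and *Epha5* in 4 of 5. By gate it held for 3 tested members in progenitors (15.3% of all genes), 2 in intermediate progenitors (15.3% of all genes), 4 in the upper-layer gate (15% of all genes), 2 in the deep-layer gate (15.6% of all genes) and 4 in the interneuron gate (19.1% of all genes). For *Epha3* in progenitors the higher library exceeded the lower 5.02-fold within *Dnmt1* KO and 6.05-fold within the controls. For *Epha6* in upper-layer nuclei the ratio within *Dnmt1* KO was 14.6. By level *Epha3* in progenitors lay below the interval of microglia-marked nuclei in every library. *Epha6* in upper-layer nuclei lay below it in *Dnmt1* KO replicate 1 and control replicate 1. These libraries also differed in what else they contained. *Dnmt1* KO replicate 2 held 211 of 217 nuclei with meningeal and 170 of 200 with choroid plexus markers, and control replicate 1 held 234 of 445 with striatal markers. The part of these differences in the receptor levels was not tested.

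*Sst*+/*Gad2*+ nuclei, those with a transcript of *Sst* and of *Gad2*, numbered 219, of which 161 lay in the interneuron gate. Cre is driven by *Sst*, but these nuclei were chosen by transcripts and not by recombination. Nuclei of the *Sst* lineage without a counted *Sst* transcript are not among them. The *Sst*+/*Gad2*+ nuclei came to 16 and 136 in *Dnmt1* KO and 40 and 27 in the controls. *Epha5* held 2267 and 2805 CPM in the *Dnmt1* KO and 2321 and 1800.4 CPM in the control libraries. *Epha3* held 685 and 905 CPM in the *Dnmt1* KO and 1099 and 812 CPM in the control libraries. *Epha6* held 245 and 831 CPM in the *Dnmt1* KO and 588 and 403 CPM in the control libraries, above its interneuron value in each library, and *Epha7* 211 and 270.3 CPM in the *Dnmt1* KO and 228 and 146 CPM in the control libraries. The *Ephb1* values of 42.3 and 179.6 CPM in the *Dnmt1* KO and 275 and 194 CPM in the control libraries and the *Epha4* values given above lay lower in both *Dnmt1* KO libraries than in both controls. These 2 of 8 tested members stand beside 33.5% of all genes that did not overlap between the genotypes in these nuclei, and neither edgeR nor DESeq2 called them. After thinning, the library shares of nuclei with *Epha4* (3.70% to 18.8%) and those with *Ephb1* lay on both sides of the 6.06% of microglia-marked nuclei, which held 163 CPM of *Epha4* and 101 CPM of *Ephb1*. In the same nuclei 6 striatal markers summed to 402 and 786 CPM in the *Dnmt1* KO and 1650 and 861 CPM in the control libraries (2 of 6 lower without overlap, with Drd1 at 0). In the same order 5 pan-excitatory markers summed to 33.8 and 66.1 against 105 and 101 CPM (3 lower, 1 higher). The 10 interneuron markers, which include *Sst* and *Gad2*, summed to 14940 and 12627 against 10584 and 10482 CPM (4 higher, 3 lower). Of 8 progenitor markers 3 were lower. The part of these markers in the receptor values was not tested. In *Dnmt1* KO replicate 1, 3 transcripts correspond to 12.7 CPM, which exceeds the 4.23 CPM of *Ephb3* there.

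Other genes of the pathway passed the test in each contrast of gates and in none between the genotypes. Of 8 ephrins 7 were tested between gates. In intermediate progenitors against progenitors 1 was higher (21.8% of all genes) and 2 were lower (27.7%), *Efna4* with a log2 fold change of 0.79 (SE 0.19, adjusted p = 0.00205), *Efnb1* with -0.77 (SE 0.09, adjusted p = 3.67e-06) and *Efnb2* with -0.36 (SE 0.07, adjusted p = 0.00076) by edgeR's quasi-likelihood test. The median over the 7 was -0.09, against -0.05 over all genes. In upper-layer nuclei against intermediate progenitors 4 were higher (29.3% of all genes) and 1 was lower (29.7%). *Efnb2*, the ephrin-B2 ligand of EphA4 and the EphB receptors, had 1.64 (SE 0.08, adjusted p = 7.1e-11), *Efna3* 2.77 (SE 0.28, adjusted p = 2.55e-07), *Efnb3* 1.37 (SE 0.20, adjusted p = 2.33e-05) and *Efnb1* -0.86 (SE 0.10, adjusted p = 1.22e-06). The median was 0.62, against 0.00 over all genes. In deep-layer against upper-layer nuclei 2 were higher (22.6% of all genes) and 3 were lower (19.7%). *Efna5*, an ephrin-A ligand of the A-class receptors, was higher with 2.94 (SE 0.31, adjusted p = 1.08e-06) and *Efna3* with 0.59 (SE 0.17, adjusted p = 0.0109), and *Efnb2* and *Efnb1* were lower with -1.25 (SE 0.07, adjusted p = 2.28e-09) and -0.71 (SE 0.10, adjusted p = 2.42e-05). The median over the 7 was -0.12. In interneurons against the layers 3 were higher (19.2% of all genes) and 3 lower (21.6%), with *Efnb2* at 0.33 (SE 0.06, adjusted p = 0.000519), *Efnb1* at -0.52 (SE 0.11, adjusted p = 0.00094), *Efna3* at -2.12 (SE 0.24, adjusted p = 2.53e-06) and *Efna4* at -2.84 (SE 0.25, adjusted p = 1.26e-07), and a median of -0.17.

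The Eph receptors that are not members were scarce, and 2 of 4 were tested between gates. *Ephb4*, a receptor best known from blood vessels, was lower in intermediate progenitors than in progenitors with -0.78 (SE 0.12, adjusted p = 4.6e-05), in upper-layer nuclei than in intermediate progenitors with -2.04 (SE 0.14, adjusted p = 3.05e-09), and in interneurons than in the layers with -0.81 (SE 0.19, adjusted p = 0.00251). *Epha8* was higher in upper-layer nuclei than in intermediate progenitors with 1.44 (SE 0.40, adjusted p = 0.00533) and higher in interneurons than in the layers with 0.81 (SE 0.27, adjusted p = 0.0257). In deep-layer against upper-layer nuclei 0 of the 2 passed, and 0 had an unadjusted p under 0.05. Of 22 signalling partners, among them guanine nucleotide exchange factors, adaptors and kinases that act downstream of Eph receptors, 12 were higher (21.8% of all genes) and 2 lower (27.7%) in intermediate progenitors than in progenitors, and 14 were higher (29.3%) and 4 lower (29.7%) in upper-layer nuclei than in intermediate progenitors. Deep-layer nuclei had 6 higher (22.6%) and 6 lower (19.7%) than upper-layer nuclei, and interneurons 4 higher (19.2%) and 8 lower (21.6%) than the layers. Their median log2 fold changes in these contrasts were 0.25, 0.54, -0.05 and -0.13. *Chn1*, a Rac GTPase-activating protein required in EphA4 signalling, was higher in intermediate progenitors than in progenitors with 0.84 (SE 0.08, adjusted p = 2.77e-07) and lower in interneurons than in the layers with -1.14 (SE 0.07, adjusted p = 1.98e-09). *Ngef*, an exchange factor that binds EphA4, was higher in deep-layer than in upper-layer nuclei with 2.28 (SE 0.20, adjusted p = 1.47e-07). Between the genotypes edgeR and DESeq2 called 0 genes of these lists in any population, and at an unadjusted p under 0.05 edgeR had 0 to 2 ephrins, 0 to 1 of the other receptors and 0 to 1 signalling partners per population. The ephrin *Efnb2* had -0.36 (SE 0.10, adjusted p = 0.774) in progenitors, with 195 and 173 CPM in the libraries of *Dnmt1* KO and 246 and 243 CPM in the controls, and -0.05 (SE 0.11, adjusted p = 0.964) in the interneuron gate. In *Sst*+/*Gad2*+ nuclei it had 0.17 (SE 0.22, adjusted p = 0.9996), with 334 and 284 CPM in the *Dnmt1* KO and 276 and 292 CPM in the control libraries.

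The genes whose pattern was most like each receptor were taken from 7885 candidates by Pearson's r of log2(CPM + 1) over the 20 sums, which share libraries, gates and depth, so the values are a description. *Ephb3* was followed most closely by *Ostm1* (r = 0.98) and *Wdhd1* (r = 0.97), *Epha4* by *Gtf2i* (r = 0.98) and *Rbms2* (r = 0.98) and *Ephb6* by *Fmnl2* (r = 0.97) and *Zfp68* (r = 0.95). *Epha3* was nearest to *Cdh8* (r = 0.93) and *Dip2b* (r = 0.91), *Ephb1* to *Pappa2* (r = 0.93) and *Gsg1l* (r = 0.92) and *Ephb2* to *Mrtfa* (r = 0.92) and *Txnrd1* (r = 0.91). For *Epha6* they were *Fbxw17* (r = 0.92) and *Gpr26* (r = 0.90) and for *Epha5* *Hdgfl3* (r = 0.90) and *Rnf19a* (r = 0.89). *Epha10* with *Nnat* (r = 0.85) and *Senp7* (r = 0.80) and *Epha7* with *Idnk* (r = 0.77) and *Unc5a* (r = 0.77) had the weakest matches. Among the members themselves the most opposed pair was *Epha5* and *Ephb1* (r = -0.87), followed by *Epha6* and *Ephb2* (r = -0.73). *Epha3* and *Ephb6* (r = 0.73) and *Epha5* and *Epha10* (r = 0.73) were the most alike.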

How the data were processed

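Fixed nuclei were indexed in successive rounds of wells (Parse Evercode). The authors deposited unnormalized counts of transcripts per barcode and gene, mapped to GRCm39, with per-barcode totals. The submitters' processing notes name R 4.4.1 and Seurat 5.0.1.9001. The annotation release and the handling of introns and strand were not given in the sources used here. Groups and replicate numbers came from the sample titles. Of 1127729 barcodes, 29656 had 1500 to 60000 transcripts, and a limit of 10% mitochondrial transcripts removed 0. The range is stated by the study for reads, which retained 30611. Transcript totals per library over all barcodes were 96455278 to 201141704, and 2774664 to 34326561 per library and gate, the total that sets the precision of a level.

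Nuclei with at least 3 markers of another cell type (2 of 3 for choroid plexus, 4 of 6 for striatum) were kept out of the gates. Interneurons needed at least 3 of 6 GABAergic markers and *Lhx6*, and not both *Neurod2* and *Neurod6*. Progenitors needed at least 3 of 8 markers and no *Eomes*. Intermediate progenitors needed at least 2 of 6 markers, with *Eomes* counted as 1 of them and required. Both allowed at most 1 GABAergic marker and not both *Neurod2* and *Neurod6*. Layer nuclei needed *Neurod2* or *Neurod6* and an upper-minus-deep marker score of at least 0.5 in either direction, which left 4308 nuclei between the layers. Layer nuclei also had at most 1 GABAergic marker, fewer than 3 of the 8 progenitor markers and no *Eomes*. The thresholds were set after marker counts, and before Eph levels, were seen. Doublets (scrublet in scanpy 1.11.5, expected 5%) were called in 3.01% to 7.16% of nuclei per library and kept.

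Raw counts were summed per library and population and tested with edgeR 4.0.16 in R 4.3.3 (quasi-likelihood, TMM, filterByExpr), with Benjamini-Hochberg adjustment over all genes tested and a threshold of 0.05, and with DESeq2 1.42.0 as an alternative. Each SE given with an edgeR log2 fold change is that change, without its sign, divided by the square root of the F statistic. It is an approximation and can differ from the p-value for scarce genes. The steps were tested on simulated data. Coordinates were matched by identifier to GENCODE vM39 for 56323 genes, and promoters are from RefSeq on GRCm38.p6, matched by symbol for 10 of 10 members. Named were the members past the threshold per gate contrast, or the 4 largest if there were more, the member of smallest p per genotype comparison, *Epha4* and *Ephb1* in the progenitor gates, at most 4 genes of smallest p per pathway list, and the 2 nearest genes per member. The members and lists were chosen with earlier results of these data known. The replicate numbers did not pair the samples.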

Additional observations from a re-analysis of the deposited data

Results flagged for a closer look

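The order of the genotypes in *Ephb1* level differed between gates. Both *Dnmt1* KO libraries lay above both controls in the progenitor, intermediate progenitor and interneuron gates and below both in the deep-layer gate. The test of this difference between the gates gave an unadjusted p of 0.0394 in edgeR's quasi-likelihood fit, and it did not pass after Benjamini-Hochberg adjustment over 15380 genes. Of all genes tested, 415 had an unadjusted p under 0.05 in the same test. After thinning, the share of interneuron nuclei with *Ephb1* lay below that of microglia-marked nuclei.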

How the results depend on the processing

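Of the values named for single members under the alternatives, 234 kept their direction and their side of the threshold, 10 changed sign, 9 came to pass the threshold and 12 no longer passed it. Without a filter on low counts edgeR called 2 members between the genotypes in the progenitor gate, 1 in the intermediate progenitor, 3 in the deep-layer and 1 in the interneuron gate, and 1 for a genotype difference that differs between gates. In these gates it called 529 of 27890, 320 of 25992, 467 of 30512 and 150 of 25287 genes, in upper-layer nuclei 158, over all nuclei 70, in *Sst*+/*Gad2*+ nuclei 53 and between gates 42, where the filtered tables had 0. DESeq2 called 1 member in the intermediate progenitor and 1 in the deep-layer gate. With gates drawn on thinned nuclei 4 members passed between interneurons and layers, where 3462 of 11716 genes did. Leaving out 1 library at a time between the genotypes assumes that a lone library varies like the others, and is given by size only. The log2 fold change of *Ephb1* ran from 0.63 to 1.31 in intermediate progenitors, from 0.59 to 1.35 in progenitors and from 0.21 to 0.46 in interneurons. That of *Epha6* ran from 0.71 to 1.07 in deep-layer nuclei.

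The log2 fold change of *Epha4* between the genotypes turned to 0.0357 in *Sst*+/*Gad2*+ nuclei with a filter on mapped reads. In progenitors it turned to 0.0151 with batch as a covariate, 0.0448 by highest marker score and 0.0310 with gates on thinned nuclei, and ran from -0.27 to 0.18 without 1 library, as it did from -0.20 to 0.45 in intermediate progenitors. *Ephb1* in interneurons turned to -0.52 without doublets, -0.16 by highest marker score and -0.99 with gates on thinned nuclei. The share of nuclei with a transcript after thinning was 54.2% for *Epha3*, 44.2% for *Epha4*, 82.2% for *Epha5*, 9.07% for *Epha6*, 26.0% for *Epha7*, 0.223% for *Epha10*, 39.8% for *Ephb1*, 30.7% for *Ephb2*, 0.949% for *Ephb3* and 2.26% for *Ephb6*. With the replicate number as a block (replicate block), 0 members passed in any population. Samples of the same number did not deviate together (r from -0.19 to 0.07), so this block pairs nothing. A crossed block in the progenitor gate, chosen after seeing the data, called 0 genes. Members at a few CPM, *Epha10* and *Ephb3* among them, could not be resolved in gates where 3 transcripts are up to 1.08 CPM.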

Other observations

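Nuclei outside the gates showed further differences between the receptors, given as values over the pooled nuclei of 4 libraries. The 217 nuclei with meningeal markers held *Epha7* at 1046 CPM, above the 348 CPM of its highest gate, while *Ephb2* there was 172 CPM. Of these nuclei 211 came from *Dnmt1* KO replicate 2. The 379 nuclei with Cajal-Retzius markers, early-born neurons of the cortical surface, held *Ephb6* at 60.7 CPM, above the 24.4 CPM of its highest gate, with *Epha3* at 1219 CPM and *Epha5* at 481 CPM. In 559 nuclei with markers of interneurons from the caudal ganglionic eminence, *Ephb1* was 553 CPM, against 57.0 to 80.9 CPM in the interneuron gate, and *Epha4* was 545 CPM, against a mean of 208 CPM. Of these 559 nuclei 288 came from *Dnmt1* KO replicate 2 and 160 from control replicate 1, and no GABAergic marker was required of them. The 445 nuclei with striatal markers held *Ephb1* at 1637 CPM. None of these differences was tested.

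GABAergic nuclei without *Lhx6* differed between libraries in 2 receptors. *Ephb1* was 90.0 and 303 CPM in the *Dnmt1* KO libraries and 846 and 88.7 CPM in the controls, and *Epha4* was 379.7 and 466 CPM against 1017 and 314 CPM. Control replicate 1 was highest for both, and it also held 234 of 445 nuclei with striatal markers. The part of these nuclei in the difference was not tested.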
